A study of Mus musculus with 20 samples.

Results

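Kainate receptors are glutamate-gated ion channels assembled from subunits of 5 types, encoded by Grik1 to Grik5. They work with the single-pass membrane proteins Neto1 and Neto2. These 7 genes were taken by symbol from a table of 24411 genes, and all 7 passed the filter on low counts that left 15284 genes for testing. The RNA came from cultured granule neurons of the mouse cerebellum, with 5 libraries in each of 4 groups numbered 1 to 5. The groups were control, shKdm6b (an shRNA against endogenous Kdm6b), that shRNA together with the active enzymatic domain of human Kdm6b, and that shRNA with a dead form of the domain. Infection was on day 1 in vitro, AraC, which stops dividing cells, was added on day 2, and RNA was taken on day 7. The sources used here do not say what control cultures were infected with. The series asks whether the demethylase activity of Kdm6b, which removes repressive methylation of histone H3 lysine 27, is enough to restore synaptic gene expression after the knockdown. The labels name no separate animals or cultures behind the 5 libraries of a group, so the p-values rest on differences among these samples that may be technical.

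The subunits GluK1, GluK2 and GluK3 (genes Grik1, Grik2 and Grik3) can form channels alone, whereas GluK4 and GluK5 (Grik4 and Grik5) bind glutamate with high affinity and reach the surface only in company with one of the others. Neto1 and Neto2 carry extracellular CUB domains, bind the receptor, slow its deactivation and desensitization and affect where it is placed. In the cerebellum, granule neurons are known for receptors of GluK2 and GluK5 with Neto2, and Neto1 is best known from hippocampal synapses.

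The stretches of DNA before the start sites of 3 members are shown, because Polycomb complexes, which write the mark that Kdm6b removes, are known to gather at DNA dense in the dinucleotide CG. Neto2 and Grik3 are the members with the largest differences after Neto1, and Grik5 is the most abundant subunit per length. Each window holds the 250 bases before a RefSeq start site (build GRCm38.p6), written 5′ to 3′ on the gene's own strand with every CG in capitals. A window was found for 5 of the 7 members, and not for Grik1 or Neto1. The 3 shown were chosen by their values in these data, so they do not test a link between CG density and a difference. No histone mark was measured here.

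Grik3, chr4:125490446-125490695, plus strand: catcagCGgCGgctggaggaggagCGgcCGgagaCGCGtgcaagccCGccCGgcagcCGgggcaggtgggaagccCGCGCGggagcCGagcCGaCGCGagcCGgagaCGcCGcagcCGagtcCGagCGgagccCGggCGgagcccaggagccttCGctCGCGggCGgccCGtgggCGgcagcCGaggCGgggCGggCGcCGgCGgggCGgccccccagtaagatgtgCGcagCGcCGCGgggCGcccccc
Neto2, chr8:85700925-85701174, minus strand: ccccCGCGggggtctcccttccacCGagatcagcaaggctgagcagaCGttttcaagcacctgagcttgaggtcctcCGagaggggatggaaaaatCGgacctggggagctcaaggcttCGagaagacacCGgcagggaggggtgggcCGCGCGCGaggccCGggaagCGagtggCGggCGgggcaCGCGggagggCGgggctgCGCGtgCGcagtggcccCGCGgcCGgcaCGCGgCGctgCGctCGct
Grik5, chr7:25072370-25072619, minus strand: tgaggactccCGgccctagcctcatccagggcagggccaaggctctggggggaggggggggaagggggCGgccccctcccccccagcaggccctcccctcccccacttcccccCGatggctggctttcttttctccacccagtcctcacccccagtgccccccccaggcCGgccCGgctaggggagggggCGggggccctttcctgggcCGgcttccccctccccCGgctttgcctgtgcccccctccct

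The Grik3 window held 42 CG, a number reached by 0.865% of the 32851 windows of this length in the table and by 1.51% of the 14658 windows of genes tested. The Neto2 window held 30 (5.94% of all windows and 10.7% of those of genes tested), that of Grik4 36 (2.58% and 4.58%) and that of Grik2 20 (17.9% and 32.7%). The Grik5 window held 8 (43.0% and 73.2%), where the medians were 6 over all windows and 14 over windows of genes tested. A second Neto2 start within the gene had none in its window. The motif searched was CG, which reads the same on both strands.

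Total estimated counts ran from 14200745 to 21179300 per library, and libraries sharing a number varied together across the 4 groups. The 4 libraries numbered 4 stood apart in granule neuron and astrocyte markers. Their summed level of 11 granule neuron markers was 1993 to 3234 CPM (reads of a gene scaled to a common library size), against 4782 to 8484 CPM in the other 16. That of 8 astrocyte and Bergmann glia markers was 11486 to 14937 CPM against 2061 to 6988 CPM. For 6 meningeal fibroblast markers the other 16 varied more, from 3297 to 23847 CPM, against 5075 to 7340 CPM in those numbered 4. The highest library of each group for these markers, at 18223 to 23847 CPM, was not numbered 4. Markers of the labelled granule neurons were above 0 in every library, 11 of 11, and of 7 Purkinje cell markers 5 were above 0 in all libraries of each group, while Pcp2 was at 0 throughout. The libraries numbered 5 shared with those numbered 4 a low content of 2 noncoding RNAs: the ribosomal precursor Rn45s took 0.206 to 0.612% of counts in numbers 4 and 5 against 2.43 to 7.24% in numbers 1 to 3, and the level of Malat1 was 217 to 997 CPM in the former and 4422 to 6888 CPM in the latter. Each group holds every number once. The targeted gene, Kdm6b, had a mean of 144 ± 40.5 CPM in the control group against 83.0 ± 28.3 CPM under the shRNA alone, 212 ± 109 CPM with the active domain and 176 ± 92.2 CPM with the dead domain (SD, n = 5 each). In the rescues it ran from 192 to 312 CPM in libraries 1 to 3 and from 54.9 to 119 CPM in libraries 4 and 5, where it was above the shKdm6b and below the control library of the same number. Whether reads of the human domain entered these counts was not tested. Because the numbers pair the libraries, tests are given both without pairing and with the library number as a block, called the paired fit.

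In control cultures the order of RNA levels per kilobase of the longest coding transcript was Grik5, Neto2, Grik2, Grik3, Grik1, Grik4 and Neto1. Grik5 stood at 27.6 ± 11.9 CPM per kb (SD, n = 5), Neto2 at 17.8 ± 6.02, Grik2 at 13.5 ± 5.59 and Grik3 at 4.27 ± 1.68 CPM per kb. Grik1, Grik4 and Neto1 followed at 0.647 ± 0.214, 0.341 ± 0.171 and 0.111 ± 0.0298 CPM per kb. The order was the same when all annotated exons of a gene were counted as its length. Neighbours differed beyond the spread of the libraries at only 2 places: the ranges of Grik3 and Grik1 did not overlap, nor did those of Grik4 and Neto1. Grik5 exceeded Neto2 in 3 of 5 control libraries, Neto2 exceeded Grik2 in 5 of 5, and Grik1 exceeded Grik4 in 4 of 5. Control granule neuron cultures thus held mostly RNA of Grik5, Neto2 and Grik2, with Neto1 the lowest of the 7.

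Neto1 rose in all 3 groups that received the shRNA in the paired edgeR fit, and was not called by edgeR without pairing. In control libraries 1 to 5 it stood at 0.734, 0.899, 1.18, 1.18 and 0.642 CPM, from 11 to 20 estimated reads per library. In shKdm6b it stood at 6.84, 5.37, 1.13, 16.6 and 11.1 CPM, with the active domain at 4.58, 3.27, 1.23, 14.7 and 5.87 CPM, and with the dead domain at 3.02, 3.76, 2.05, 13.04 and 3.25 CPM. Library 4 was the highest and library 3 the lowest in each shRNA group. Every library of both rescues lay above every control library, while shKdm6b library 3 lay within the control range and the other 4 above it. The means were 0.927 ± 0.249 CPM in control, 8.22 ± 5.90 in shKdm6b, 5.93 ± 5.19 with the active domain and 5.02 ± 4.52 with the dead domain (SD, n = 5 each).

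**Figure D1:**
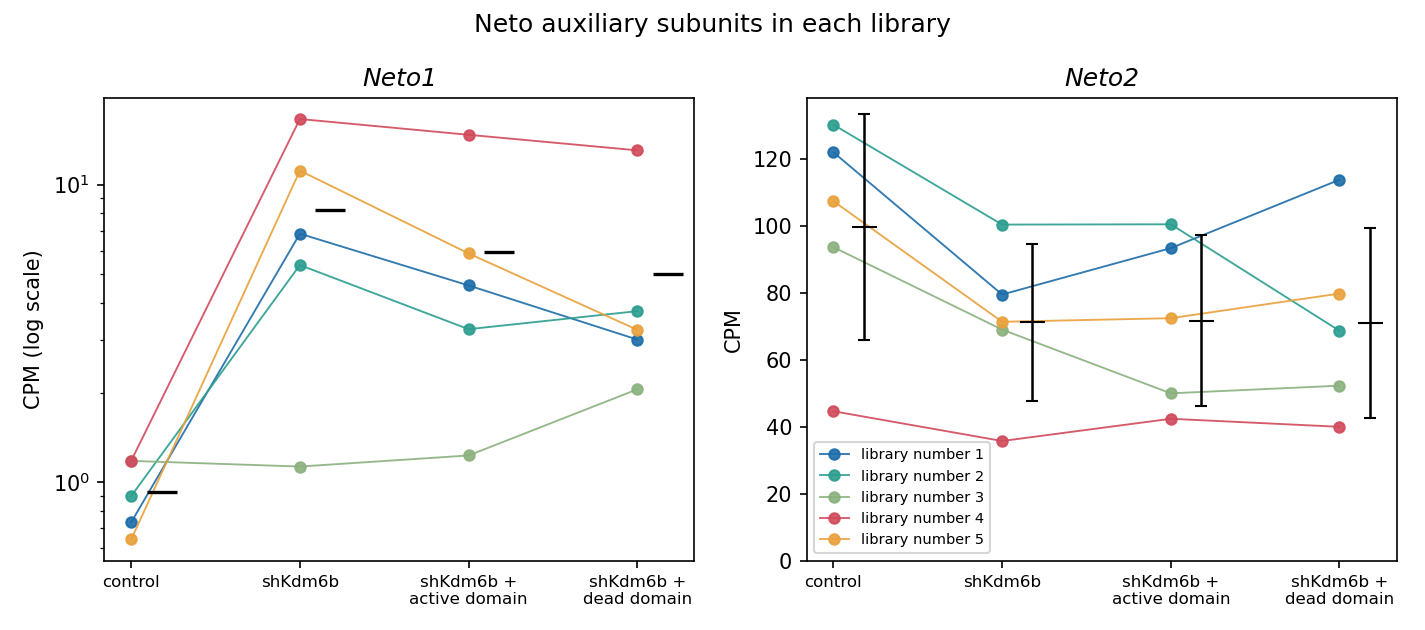
Levels of Neto1 (left, log axis) and Neto2 (right) in CPM in each of 20 libraries; points joined by a line share a library number, black dashes are group means and bars on the right panel are SD (n = 5). Neto1 is between 0.642 and 1.18 CPM in control and reaches 16.6 CPM in shKdm6b, with library number 3 nearly flat from control to the active domain, and each line of Neto2 is below its control point in all shRNA groups.

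In the paired edgeR fit Neto1 passed the threshold of 0.05 in each comparison with control. Its log2 fold change was 2.82 ± 0.43 in shKdm6b (SE; adjusted p = 0.00119), 2.30 ± 0.43 with the active domain (adjusted p = 0.0105) and 2.13 ± 0.44 with the dead domain (adjusted p = 0.0240). It was higher in 4 of 5 pairs in shKdm6b and in 5 of 5 in both rescues. The 3 comparisons share the control libraries. Neto1 was the single member called in each, and among all 15284 genes the share called in either direction was 4.14% in shKdm6b, 1.96% with the active domain and 1.18% with the dead domain, with 1.72%, 1.09% and 0.576% called higher. Without pairing, Neto1 had log2 fold changes of 3.14 ± 0.70, 2.67 ± 0.69 and 2.43 ± 0.69 and did not pass (edgeR adjusted p = 0.140, 0.485 and 0.909). DESeq2 without pairing called it in shKdm6b (log2 fold change 3.15, adjusted p = 0.000989) and with the active domain (2.68, adjusted p = 0.0315), and not with the dead domain (2.44, adjusted p = 0.1001). That DESeq2 fit called 62, 23 and 18 genes in all. No member was called by the unpaired edgeR fit in any of the 6 comparisons, where the share of all genes called was 0.00654% in shKdm6b against control and 0 in the other 5. At an unadjusted p under 0.05 this edgeR fit held 1 member, Neto1, in each comparison with control and 0 in the others. The shares of all genes under that unadjusted limit were 3.12% in shKdm6b, 2.53% with the active domain and 1.81% with the dead domain, and 0.164 to 0.327% between shRNA groups.

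With any 1 library left out, the paired calls of Neto1 in shKdm6b and with the active domain held (edgeR adjusted p up to 0.00803 and 0.0446). With the dead domain the call ended without control 1, 2, 4 or 5 or without dead-domain library 2, 3 or 4 (edgeR adjusted p up to 0.0922). With all libraries numbered 4 left out the paired edgeR log2 fold changes were 2.55 (adjusted p = 0.00287), 1.92 (adjusted p = 0.0279) and 1.74 (adjusted p = 0.0672). With numbers 1 to 3 alone the paired edgeR values were 2.02 (adjusted p = 0.0444), 1.53 (adjusted p = 0.117) and 1.595 (adjusted p = 0.171). The call with the dead domain thus ended in both subsets, and that with the active domain with numbers 1 to 3 alone. Both subsets hold fewer libraries a group. Numbers 4 and 5 also differ from numbers 1 to 3 in Rn45s and Malat1, whose part in the Neto1 values was not tested.

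Neto1 is on the plus strand of chromosome 18 (86394952 to 86506718 in GRCm38 as annotated by GENCODE M21, the whole gene with introns and UTRs). The span of an annotated antisense RNA gene reaches at least 1 of its exons. The sources used here do not say whether counting used strand, so reads of the pair cannot be told apart. The estimated count of Neto1 was not a whole number (tolerance 0.001) in 15 of 20 libraries, 1 of them a control, which can arise where an estimate divides reads between transcripts of different genes. Among the other members such values occurred once each for Grik3 and Grik5.

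Neto1 was not called in either rescue against shKdm6b, and both intervals of the difference include 0. The log2 fold change from shKdm6b was -0.52 ± 0.36 with the active domain and -0.69 ± 0.37 with the dead domain (SE, paired edgeR adjusted p = 1.00 for both), lower in 4 of 5 pairs each. Approximate 95% intervals ran from -1.23 to 0.19 and from -1.42 to 0.03. Between the active and dead domains the difference was 0.17 ± 0.37, with an interval from -0.55 to 0.90.

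Markers of cell types other than granule neurons were set beside the rise of Neto1. The summed level of 6 unipolar brush cell markers ran from 154 to 362 CPM in control and from 144 to 382 CPM in shKdm6b. For 9 markers of GABAergic interneurons the ranges were 182 to 453 and 152 to 374 CPM, and for 7 Purkinje cell markers 93.8 to 276 and 88.7 to 261 CPM. In the paired edgeR fit 0 of 6 unipolar brush cell and 0 of 5 tested Purkinje cell markers were called in shKdm6b, while 1 interneuron marker was higher and 2 were lower. Of 9 oligodendrocyte and 8 microglia markers 1 each was lower, and 0 of 8 astrocyte, 6 meningeal and 5 endothelial markers were called. The share over all genes was 4.14%. Against control, 1 interneuron marker was higher and 1 lower with the active domain, and none of these 8 types held a call with the dead domain. The shares of all genes called in these comparisons were 1.96% and 1.18%, so few calls among the markers say little. Across libraries Neto1 was highest in those numbered 4, which also held the most astrocyte and the fewest granule neuron transcripts; in control library 4 it stood at 1.18 CPM. The part of cell makeup in the result was not tested, and in bulk RNA fewer cells of a type cannot be told apart from less RNA per cell.

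Neto2, the partner of granule neuron kainate receptors, was lower in every shRNA group, but the difference did not pass the paired edgeR threshold. It stood at 122, 130, 93.7, 44.6 and 107 CPM in control libraries 1 to 5 and at 79.6, 100.5, 69.1, 35.7 and 71.4 CPM in shKdm6b. With the active domain it stood at 93.4, 100.6, 50.005, 42.4 and 72.5 CPM, and with the dead domain at 114, 68.7, 52.3, 40.0 and 79.9 CPM. The ranges of all groups overlap, since library 4 is the lowest in each, yet each of the 15 shRNA libraries lies below the control of its own number. The mean log2 difference over pairs was -0.47 ± 0.13 in shKdm6b, -0.46 ± 0.30 with the active domain and -0.49 ± 0.38 with the dead domain (SD over 5 pairs).

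The paired edgeR fit gave Neto2 log2 fold changes of -0.47 ± 0.13 in shKdm6b (SE; adjusted p = 0.0644), -0.46 ± 0.13 with the active domain (adjusted p = 0.0986) and -0.48 ± 0.13 with the dead domain (adjusted p = 0.110). DESeq2 with the same block called all 3 (adjusted p = 0.0186, 0.0257 and 0.0281). That fit, run without the filter on low counts, called 1040, 751 and 586 genes in all, against 632, 299 and 181 in the paired edgeR fit. With the libraries numbered 4 left out edgeR also called the comparisons of shKdm6b (adjusted p = 0.0457) and the active domain (adjusted p = 0.0370) with control, and not that of the dead domain (adjusted p = 0.0565). In these 3 comparisons it then called 990, 700 and 378 genes in all. Of 11 granule neuron markers, the paired edgeR fit on all libraries called 1 higher and 3 lower in shKdm6b (median log2 fold change -0.24), 0 with the active domain (median -0.15) and 1 lower with the dead domain (median -0.21). Their part in the Neto2 values was not tested. Between rescues and shKdm6b, Neto2 differed by 0.01 ± 0.13 (SE) with the active domain, with an interval from -0.26 to 0.27, and by -0.01 ± 0.13 with the dead domain, with an interval from -0.28 to 0.25. Neto2 is on the minus strand of chromosome 8 (85636588 to 85700924), and a microRNA gene on the opposite strand, Mir8109, overlaps at least 1 of its exons.

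Per length, Neto1 made up 0.400 to 1.75% of the RNA of both Neto genes in control libraries. The share ran from 1.09 to 23.8% in shKdm6b, from 1.63 to 18.9% with the active domain and from 1.75 to 17.96% with the dead domain. Neto2 was the larger share in all 20 libraries. The highest share in each shRNA group was that of library 4, where Neto2 was lowest.

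**Figure D2:**
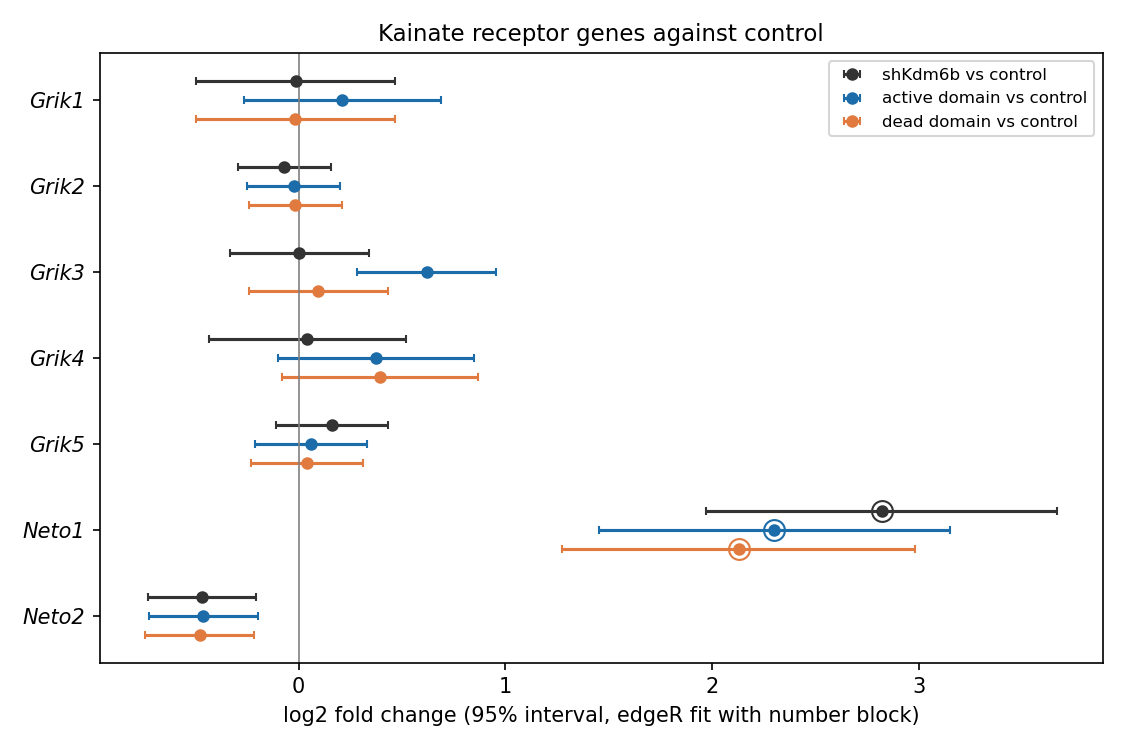
Log2 fold change of the 7 genes against control in the paired edgeR fit, with approximate 95% intervals (5 libraries a group); rings mark an adjusted p under 0.05. The rings are on Neto1 alone, at 2.82, 2.30 and 2.13, and the intervals of Neto2 lie below 0 without a ring.

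Grik2, which encodes the GluK2 channel subunit, was not called in any comparison. It stood at 147, 187, 137, 43.6 and 121 CPM in control, at 149, 200.1, 128, 30.1 and 130 CPM in shKdm6b, at 157, 209, 127, 40.7 and 107 CPM with the active domain and at 168, 167, 107, 49.2 and 123.3 CPM with the dead domain. Library 4 was far below the others in each group, and the groups overlap throughout. The paired log2 fold change in shKdm6b was -0.07 ± 0.11 (SE), with an approximate interval from -0.29 to 0.15, and was -0.02 with each domain against control. Grik2 is on the minus strand of chromosome 10 (49094833 to 49788766).

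Grik5, which encodes the high-affinity subunit GluK5, was likewise not called in any comparison. Its levels were 80.2, 81.3, 72.6, 181 and 105 CPM in control and 97.1, 95.1, 80.0, 196 and 111 CPM in shKdm6b, higher in 5 of 5 pairs by 0.17 ± 0.08 on the log2 scale (SD over pairs). The paired edgeR log2 fold change was 0.16 ± 0.14 (SE; adjusted p = 0.674). With the active domain the levels were 101, 100.8, 95.8, 102 and 103 CPM, and with the dead domain 82.9, 102, 81.9, 158 and 96.4 CPM. Library 4 was the highest in control, shKdm6b and the dead domain, but not with the active domain, where the 5 libraries lay between 95.8 and 103 CPM. Grik5 is on the minus strand of chromosome 7 (25009849 to 25072346).

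**Figure D3:**
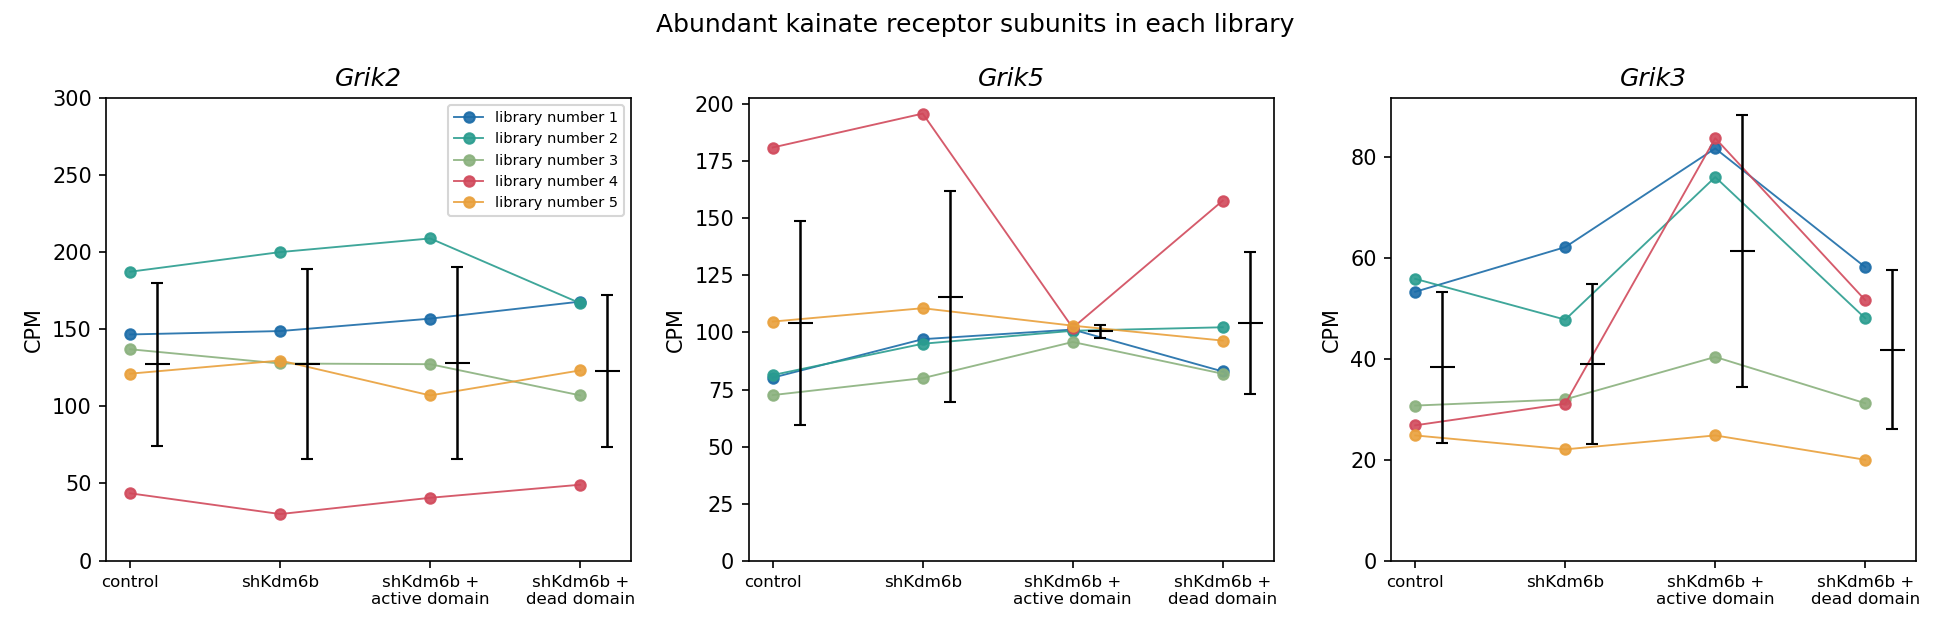
Levels of Grik2, Grik5 and Grik3 in CPM in each of 20 libraries; points joined by a line share a library number, and black bars are group means with SD (n = 5). Library number 4 is low for Grik2 (30.1 to 49.2 CPM) and high for Grik5 outside the active domain group, and Grik3 peaks with the active domain.

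Grik3, which encodes GluK3, a subunit of low glutamate sensitivity, was highest with the active domain. It stood at 53.3, 55.9, 30.7, 26.8 and 24.8 CPM in control, at 62.2, 47.8, 32.0, 31.1 and 22.05 CPM in shKdm6b and at 58.2, 48.0, 31.2, 51.6 and 19.98 CPM with the dead domain. With the active domain it stood at 81.7, 76.1, 40.4, 83.8 and 24.8 CPM. Libraries 1, 2 and 4 of that group exceeded every library of the other groups, while libraries 3 and 5 fell within their ranges. In pairs, the active domain lay above the dead domain in 5 of 5, by 0.51 ± 0.17 (log2, SD over pairs), above shKdm6b in 5 of 5 by 0.60 ± 0.50, and above control in 5 of 5 by 0.62 ± 0.61, with the pair numbered 5 differing from control by only 7.17e-05.

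None of these differences of Grik3 passed the paired edgeR threshold. The log2 fold change was 0.53 ± 0.17 (SE) against the dead domain (adjusted p = 1.00, unadjusted p = 0.00673), 0.62 ± 0.17 against shKdm6b (adjusted p = 0.620, unadjusted p = 0.00225) and 0.62 ± 0.17 against control (adjusted p = 0.0791). DESeq2 with the block called the comparison with control (adjusted p = 0.0264) and not those with shKdm6b (0.0628) and the dead domain (0.312). That fit called 751, 197 and 173 genes in all. Without the libraries numbered 4, edgeR called the active domain against control at a smaller log2 fold change of 0.35 ± 0.09 (SE; adjusted p = 0.0392), among 700 genes called in all. In shKdm6b against control the log2 fold change of Grik3 was 0.00 ± 0.17, with an interval from -0.33 to 0.34. Grik3 is on the plus strand of chromosome 4 (125490700 to 125714173).

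In the 3 comparisons between groups with the shRNA, 0 of 7 members were called by the paired edgeR fit. The share of all genes called was 0.00654% for the active domain against shKdm6b, 0 for the dead domain against shKdm6b and 0.00654% for the active against the dead domain. At an unadjusted p under 0.05 in that edgeR fit, Grik3 was the single member in the first and the last, and none was in the second. The shares of all genes under that unadjusted limit were 3.78%, 1.4% and 2.72% in the same order. DESeq2 with the block also called 0 members in each, where it called 197, 145 and 173 genes in all.

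**Figure D4:**
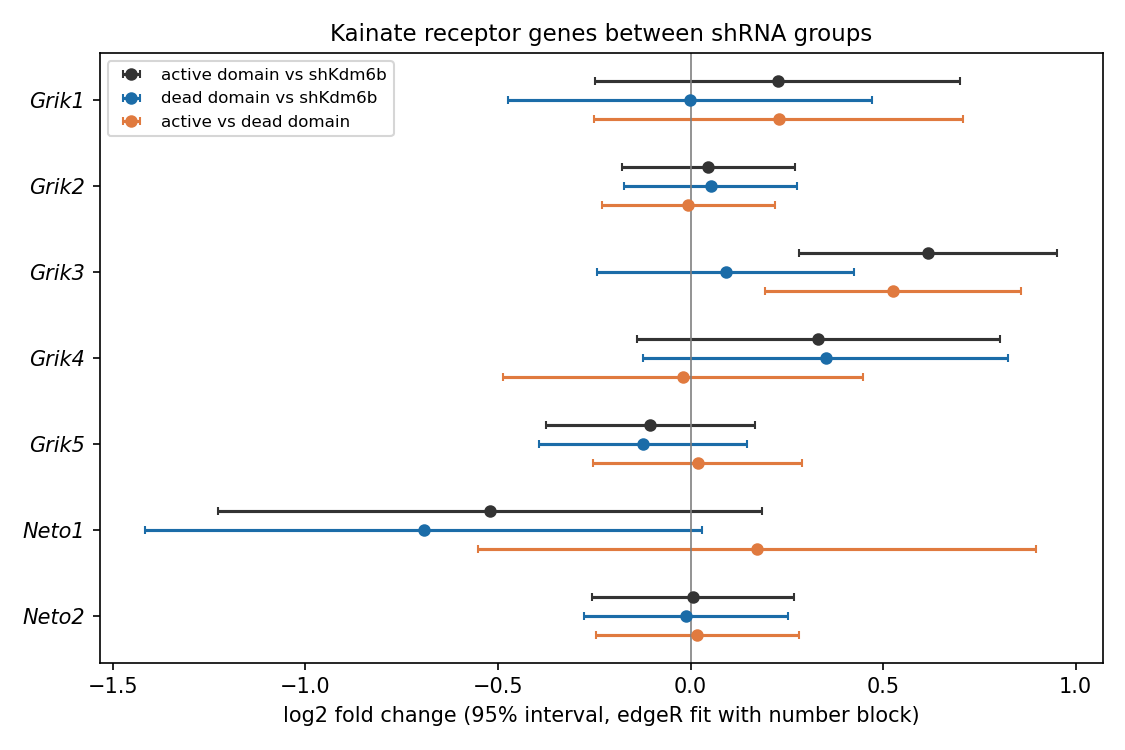
Log2 fold change of the 7 genes between the groups with the shRNA in the paired edgeR fit, with approximate 95% intervals (5 libraries a group). No adjusted p is under 0.05; the intervals of Grik3 with the active domain lie above 0, and those of Neto1 against shKdm6b are the widest to the left, reaching -1.42.

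Grik1 and Grik4 were sparse. Grik1, which encodes the GluK1 subunit, ran from 1.36 to 4.01 CPM over the 20 libraries, from 23 to 81 reads, and its group means were 2.36 ± 0.78 CPM in control, 2.30 ± 0.36 in shKdm6b, 2.72 ± 0.90 with the active and 2.32 ± 0.56 with the dead domain (SD, n = 5 each). Grik4, which encodes the high-affinity subunit GluK4, ran from 0.934 to 3.80 CPM, from 16 to 70 reads, with means of 2.01 ± 1.01, 2.03 ± 0.82, 2.48 ± 0.58 and 2.54 ± 0.79 CPM in the same order. The groups overlap for both genes. In shKdm6b the paired log2 fold changes were -0.01 for Grik1, with an interval from -0.50 to 0.47, and 0.04 for Grik4, with an interval from -0.44 to 0.52. Grik1 is on chromosome 16 (87895900 to 88290265) and Grik4 on chromosome 9 (42518135 to 42944493), both on the minus strand.

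Per length, Grik2 made up 26.8 to 40.7% of the RNA of the 5 Grik genes in the 16 libraries not numbered 4, and 5.34 to 10.3% in the 4 numbered 4. Grik5 made up 44.3 to 64.7% and 64.7 to 87.1% in the same sets. Grik3 reached its highest share, 22.3%, in library 4 of the active domain group, against 5.26, 5.79 and 10.6% in library 4 of control, shKdm6b and the dead domain. Grik1 and Grik4 together never exceeded 3.11%.

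**Figure D5:**
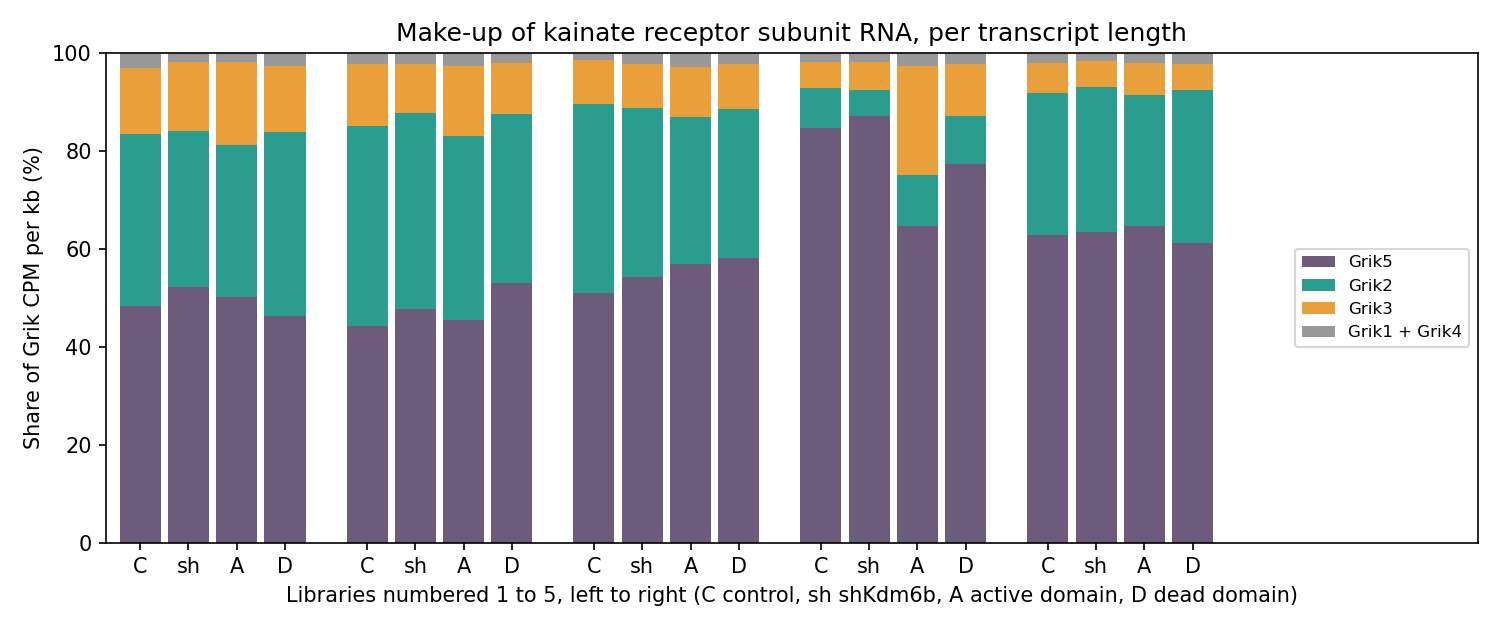
Share of each subunit in the summed CPM per kb of the 5 Grik genes, in percent, for every library in order of library number. Grik5 and Grik2 fill most of each bar, and in the libraries numbered 4 the share of Grik2 is at most 10.3%.

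Correlations among the members were taken on values that leave out what same-numbered libraries share and keep differences between groups. Over the 20 libraries, taken as deviations from the mean of same-numbered libraries, the lowest correlation was that of Neto1 with Neto2 (Pearson r = -0.62) and the highest that of Grik2 with Neto2 (r = 0.41). Grik5 with Neto2, Grik3 with Grik5 and Grik4 with Neto2 stood at -0.49, -0.48 and -0.45. These values describe libraries that share groups, numbers and depth. By the same measure, among 13409 genes, Neto1 was most like Pitx1 (r = 0.93), Galr1 (r = 0.93) and Hrk (r = 0.92). Galr1, a galanin receptor gene, had means of 2.63, 12.8, 8.45 and 8.004 CPM in control, shKdm6b, active and dead domain groups, and Hrk, a gene of a cell death activator, 31.6, 82.6, 76.7 and 72.1 CPM. Pitx1, a homeobox gene, had 0.362, 14.6, 6.50 and 7.14 CPM.

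The genes most like Neto2 were Smad2, Amer1 and Ppp6r3 (r = 0.95, 0.95 and 0.94). Amer1, a gene of the Wnt pathway, stood at 34.7 CPM in control and 21.3, 21.7 and 22.5 CPM in the shRNA groups. Grik3 was most like Bcor (r = 0.95), a corepressor gene with 39.4, 38.2, 50.7 and 37.7 CPM in the same order of groups, then Flt1 and Sema3e (r = 0.93 each). Grik5 was most like Pcsk1n, Lypla2 and Dbp (r = 0.96, 0.95 and 0.95), and Grik2 most like Gpm6a, Amph and Wasf1 (r = 0.92, 0.92 and 0.91). The sparse genes had lower values, up to 0.73 for Grik1 with Otx2 and 0.74 for Grik4 with Ccno.

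Other genes of glutamate signalling were taken from lists chosen with earlier results of these data known. Their calls are given beside the 4.14% of all genes called in shKdm6b in the paired edgeR fit, and are not a test of the lists. Of 13 AMPA, NMDA and delta receptor subunits, 2 fell, 0 rose and 11 did not pass, with a median log2 fold change of -0.17 against 0.01 over all genes. The members that fell were Grin2c, an NMDA receptor subunit that granule neurons gain as they mature, by 1.47, and Grin3a, an NMDA receptor subunit of developing neurons, by 0.81. Of 7 metabotropic receptors tested, 2 fell, Grm4 by 0.58 and Grm3 by 0.87, and 5 did not pass (median 0.24). Kainate receptor subunits held 0 calls of 5, too few genes to set against a share of 4.14%.

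Auxiliary subunits of AMPA receptors went both ways. Of 12 genes, 3 rose, 2 fell and 7 did not pass, with a median of 0.36. Shisa7 rose by 0.79 ± 0.13 (SE; paired edgeR adjusted p = 0.00179), from 13.8 ± 3.58 to 24.0 ± 7.22 CPM, and Cacng8 by 0.86 ± 0.16 (adjusted p = 0.00507), from 10.5 ± 3.58 to 18.7 ± 5.02 CPM. Cnih2 rose by 0.52 ± 0.14. Cacng2, the stargazin gene of cerebellar granule neurons, fell by 0.60 ± 0.11, with means of 48.9 ± 23.2 CPM in control and 32.8 ± 15.7 CPM after the knockdown. Gsg1l fell by 0.77 ± 0.17. Against control, Shisa7 was also higher with the active domain, by 0.65, and Cacng2 lower with the dead domain, by -0.56.

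Another list held genes whose products bind, move or modify kainate receptors, and relatives of such genes. Of 23 tested, 1 rose, 2 fell and 20 did not pass in shKdm6b (median 0.09). Camk2a, the kinase subunit, rose by 2.25 ± 0.22 (SE; paired edgeR adjusted p = 4.07e-05). Sez6l2, of the Sez6 family of CUB-domain proteins, fell by 0.64, from 313 ± 85.1 to 213 ± 85.7 CPM, and the fusion protein gene Snap25 fell by 0.83. With the active domain against control, Camk2a and Sez6l were higher and Sez6l2 lower. With the dead domain, Camk2a was higher, and the receptor subunits Grin2c and Grin3a were lower (log2 fold changes of -1.22 and -0.74). Without pairing, Camk2a in shKdm6b was the single call in these lists (2.21 ± 0.31 SE; edgeR adjusted p = 0.0157). None of the genes in these 4 lists was called in any of the 3 comparisons between shRNA groups, where the paired fit called at most 1 gene of all.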

How the data were processed

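The 20 RNA libraries were quantified by the authors as estimated counts per gene, deposited as 1 table whose name gives salmon. Per the submitters' processing notes, reads were placed on mm10. The salmon version, annotation, strand setting and any filter are unstated: not given in the sources used here. All 20 columns were matched to samples by name. Counts were rounded, 15284 of 24411 genes kept with filterByExpr, scaled with TMM and tested across all genes with edgeR 4.0.16 (R 4.3.3; quasi-likelihood, robust, two-sided contrasts of 1 fit, Benjamini-Hochberg, threshold 0.05). The design had no block, and the fit with library number as a block was its alternative. Since same-numbered libraries deviated together in all 30 pairs (Pearson r 0.361 to 0.881; limit 0.1), paired values are given beside it. No label explains the numbers. Residual degrees of freedom were 16 without and 12 with the block.

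CPM use TMM-scaled library sizes, log2 CPM a prior count of 1, intervals are normal approximations at 95%. Lengths are of GENCODE M21 transcripts, which may differ from those used for counting. Alternatives were DESeq2 1.42.0, RLE scaling, no filter, 2 groups in a fit, and libraries left out. Fits were also run on counts simulated from the paired fit, with changes set only in genes above a limit of average level. Low levels such as that of Neto1 in control were not tested separately. The members and lists were chosen with earlier results of these data known. Named genes were the 7 members, the 3 genes most like each by correlation (at least 1 CPM, without predicted or clone-named genes), and up to 4 called genes per list by smallest p; Cnih2, the fifth of its list, was added after its values were seen.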

Additional observations from a re-analysis of the deposited data

Results flagged for a closer look

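In 28 sets of 5 libraries (7 genes, 4 groups), 3 held a library far from the others by Dixon's criterion, which chance alone gives in about 1 of 20 sets. All 3 were libraries numbered 4. Grik5 stood at 196 CPM in shKdm6b library 4, with the next at 111 CPM. Grik5 stood at 158 CPM in dead-domain library 4, with the next at 102 CPM. Neto1 stood at 13.04 CPM in dead-domain library 4, with the next at 3.76 CPM.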

How the results depend on the processing

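Without pairing, edgeR called 0 of the 7 members in each of the 6 comparisons, and the same 0 came from RLE scaling, no filter, 2 groups in a fit and every fit without block that left out 1 library. With the replicate block the count in shKdm6b against control was 1 (Neto1), in the active domain against control 1 and in the dead domain against control 1. DESeq2 without block gave 1, 1 and 0, and DESeq2 with the block 2, 3 and 2. With the block and the libraries numbered 4 left out, the counts were 2, 3 and 0, and with numbers 1 to 3 alone 1, 1 (Grik3) and 0. Over all genes, edgeR with the block called 632, 299 and 181. DESeq2 called 62, 23 and 18 genes without and 1040, 751 and 586 with the block. Paired edgeR called 990, 700 and 378 genes without the libraries numbered 4, and 445, 454 and 143 with numbers 1 to 3 alone. When 1 library was left out, over both edgeR fits, the counts of members ran from 0 to 2, from 0 to 1 and from 0 to 2. The 3 comparisons between shRNA groups gave 0 under every alternative. No value of Neto1, Neto2 or Grik3 in the 9 results with an unadjusted p under 0.05 changed sign under any alternative. The other 33 log2 fold changes changed sign in 213 of 924 alternative values, passed the threshold in none, and were at most 0.42 in size where the sign changed. Where calls differ, the cause was not tested. Neto1 in control rests on 11 to 20 reads a library, which limits its fold change.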
